A study of Mus musculus with 16 samples.

Results

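The proteasome genes described here are all genes whose symbol begins with Psm, followed by a class letter from a to g and a number. This rule took 47 of the 20278 genes in the deposited tables, and all 47 stood in each of the 3 tables and passed the filter on low values. They comprise 34 subunits of the core particle and the regulatory particle, of which 31 are constitutive and 3 are the immune catalytic subunits Psmb8, Psmb9 and Psmb10. A further 12 are activators, an inhibitor and assembly chaperones, among them the activator subunits Psme1 and Psme2. The last, Psmc3ip, meets the rule by its name alone: it encodes a meiotic recombination factor and no proteasome subunit.

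The proteasome degrades proteins marked with ubiquitin inside a barrel of alpha and beta subunits, and a regulatory particle with a ring of ATPases unfolds the substrates and feeds them in. Interferon signalling induces immune counterparts of the 3 catalytic beta subunits, which replace the constitutive ones in newly made barrels: Psmb8 takes the place of Psmb5, Psmb9 that of Psmb6 and Psmb10 that of Psmb7. Psme1 and Psme2 form a ring-shaped activator that is also induced by interferon. This immunoproteasome is abundant in leukocytes and supplies peptides for MHC class I molecules, whereas the constitutive form prevails in most neurons.

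Whole retinas of adult C57BL/6 mice of about 6 weeks were compared. In the group Uninjured (4 libraries) the optic nerve was intact, and no virus is named for it in the labels. The groups GFP (3 libraries analysed of 4 labelled samples), HDAC5AA (4) and HDAC5DAD (4) had received an AAV2 vector into the vitreous, carrying the gene for green fluorescent protein or for 1 of 2 forms of histone deacetylase 5, directed at retinal ganglion cells. The optic nerve was crushed 2 weeks after the virus, and the retinas were taken 4 days after the crush. Every injured group therefore differs from Uninjured by virus and crush together, and these cannot be told apart. The labels give neither the promoter of the vectors nor the share of cells that carried them, and they do not state that each replicate came from its own animal. A p-value here therefore reflects only how far these libraries scatter, which may be technical scatter.

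The 15 libraries held 10940144 to 30974058 reads over the tabled genes, and 0.0212% to 9.87% of them fell on ribosomal RNA features. The share was 1.41%, 1.50% and 2.43% in GFP replicates 2, 3 and 4, at least 1% in each. Uninjured, HDAC5AA and HDAC5DAD each had libraries on both sides of 1%. Comparisons with GFP were therefore not balanced in this share. The 6 rod markers, including rhodopsin, together held 1367186 to 1460719 normalized reads in Uninjured and 1197112 to 1411789 over the injured libraries. The 8 markers of ganglion cells summed to 12254 to 13860 normalized reads in Uninjured and to 5985 to 8059 over the injured libraries. In whole tissue, fewer cells of a type and less RNA per cell cannot be told apart. The 10 microglial markers summed to 1189 to 1406 in Uninjured, 2515 to 3567 in GFP, 2921 to 4856 in HDAC5AA and 3421 to 4781 in HDAC5DAD, and 9 of the 10 passed the test in each comparison with Uninjured.

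Psmb8 and Psmb9 lie beside the peptide transporter gene Tap1 in the MHC region of chromosome 17 (GRCm38), at chr17:34197721-34201454 on the plus strand and chr17:34181987-34187764 on the minus strand. Psmb10 lies on another chromosome, at chr8:105935735-105938444 on the minus strand. Psme1 and Psme2 stand near each other at chr14:55578123-55581529 and chr14:55587441-55591113 on opposite strands. RefSeq promoter windows (GRCm38.p6) were matched for 40 of the 47 genes by symbol. The 250 bases before the start were searched on both strands for 3 motif cores, which do not overlap each other in the sequences shown. The gamma activated site core TTCNNNGAA, named for its part in the response to interferon gamma, was found in 7.01% of 32817 windows of all genes and in those of Psmb8 and the assembly chaperone gene Psmg1. The core of the interferon stimulated response element, a pair of GAAA words 2 bases apart, was found in 2.97% of all windows and in those of Psmb3, Psmd4 and Psmd9. The core of the antioxidant response element, TGACNNNGC, bound by the transcription factors that induce constitutive subunits, was found in 10.2% of all windows and in those of Psmb5, Psmb6, Psmc6, Psmd9 and Psmd12.

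The following stretches are shown because they belong to the immune gene with a match and to the constitutive genes the results turn on. They are written 5′ to 3′ on the strand of the gene, with the motif in capitals. The Psmb8 match ends 89 bases before the RefSeq start (chr17:34198088-34198116). That start lies 474 bases inside the gene as GENCODE M21 annotates it, and the match falls in a GENCODE exon of Psmb8. The RefSeq starts of 10 matched members, Psmb8, Psmb9 and Psme1 among them, lie over 100 bases inside the GENCODE gene, so those windows are not the sequence before its outermost start. The Psmb5 match ends 39 bases before its RefSeq start. The Psmb6 stretch is chr11:70525338-70525356 and the Psmc6 stretch, with the core on the other strand, is chr14:45329587-45329615.
Psmb8: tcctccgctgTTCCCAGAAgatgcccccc
Psmb6: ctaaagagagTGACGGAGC
Psmc6: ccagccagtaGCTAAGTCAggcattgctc
For Psmb5 and Psmb10 the bases that lie upstream of every annotated exon are shown whole, from chr14:54618023-54618245 and chr8:105938445-105938642, both on the minus strand. They set a constitutive catalytic subunit that fell in 1 comparison beside an immune one that rose in all 3. No core was found in the Psmb10 window or in the Psmb9 window, whose RefSeq start lies 434 bases inside the GENCODE gene. This says only that these letters are not there.
Psmb5: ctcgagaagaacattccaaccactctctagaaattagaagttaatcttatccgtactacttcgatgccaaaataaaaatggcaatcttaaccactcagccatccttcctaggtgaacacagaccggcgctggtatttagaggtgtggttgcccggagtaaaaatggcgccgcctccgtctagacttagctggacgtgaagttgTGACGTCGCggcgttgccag
Psmb10: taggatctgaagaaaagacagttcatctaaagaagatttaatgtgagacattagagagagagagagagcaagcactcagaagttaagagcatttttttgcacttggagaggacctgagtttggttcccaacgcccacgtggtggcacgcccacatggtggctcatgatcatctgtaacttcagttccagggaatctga

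After virus and crush, the immune catalytic subunits rose in all 3 injured groups while the constitutive subunits stayed close to their uninjured level. Psmb8 and Psmb9 rose by 2.88-fold and 2.86-fold in GFP, 4.05-fold and 4.79-fold in HDAC5AA and 5.59-fold and 5.72-fold in HDAC5DAD. Psmb10 rose less, by 1.36-fold to 1.75-fold. The activator subunit Psme1 passed the test in HDAC5AA and HDAC5DAD. Its partner Psme2 passed it in none of the 3 comparisons.

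Levels below are normalized reads on the common scale of all 15 libraries, in the order of the replicates, and fold changes against Uninjured come from the table of each pair. Psmb8 stood at 43.8, 40.1, 53.9 and 49.8 in Uninjured and at 106, 159 and 150 in GFP replicates 2 to 4. It reached 175, 305, 158 and 161 in HDAC5AA and 232, 245, 288 and 302 in HDAC5DAD. Every injured library lay above every uninjured one, and the HDAC5DAD libraries all lay above the GFP libraries. Within HDAC5AA, replicate 2 stood far above the other 3 libraries and above all of HDAC5DAD. By limma with Benjamini-Hochberg adjustment over all genes, the log2 fold change of Psmb8 against Uninjured was 1.53 (SE 0.17, adjusted p = 1.49e-06) in GFP. It was 2.02 (SE 0.18, adjusted p = 1.18e-06) in HDAC5AA and 2.48 (SE 0.13, adjusted p = 1.13e-10) in HDAC5DAD. Without HDAC5AA replicate 2, its value in HDAC5AA was 1.80.

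Psmb9 stood at 29.9, 16.7, 29.4 and 31.1 in Uninjured and at 62.9, 97.7 and 72.2 in GFP. It reached 123, 188, 110 and 107 in HDAC5AA and 125, 128, 162 and 215 in HDAC5DAD. Again no injured library overlapped the uninjured ones, and both HDAC5 groups lay wholly above GFP. The limma log2 fold changes were 1.51 (SE 0.22, adjusted p = 7.17e-05) in GFP, 2.26 (SE 0.21, adjusted p = 9.99e-07) in HDAC5AA and 2.52 (SE 0.21, adjusted p = 1.91e-07) in HDAC5DAD. Uninjured replicate 2 was the lowest library by far, and without it the 3 values were 1.31, 2.05 and 2.31. Of the 50-base words in the Psmb9 transcript, 12.5% also occur in Tap1 transcripts, whose exons overlap Psmb9 on the opposite strand by 212 bases. For Psmb8 the share was 5.83%, all with Gm20496 on the opposite strand. The strand mode of counting is not given in the sources used here, so reads from these overlaps cannot be assigned.

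Psmb10 shares no 50-base word with another gene. Its levels were 223, 207, 194 and 226 in Uninjured and 250, 315 and 307 in GFP. HDAC5AA libraries held 249, 393, 285 and 298, and HDAC5DAD libraries 366, 379, 370 and 373. The 4 HDAC5DAD libraries agreed closely, with a mean of 371.9 ± 5.52 (SD, n = 4), whereas HDAC5AA spread over 306 ± 61.3 (SD, n = 4). No injured library fell below the highest uninjured one. The limma log2 fold change was 0.44 (SE 0.10, adjusted p = 0.00585) in GFP, 0.51 (SE 0.12, adjusted p = 0.00681) in HDAC5AA and 0.80 (SE 0.08, adjusted p = 5.92e-07) in HDAC5DAD. Among libraries with at least 1% ribosomal RNA feature reads the call was lost in GFP (0.36, adjusted p = 0.0811) and in HDAC5AA (0.37, adjusted p = 0.156). In HDAC5AA it was also lost among the other libraries, at a higher value (0.64, adjusted p = 0.159).

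Psme1 encodes the alpha subunit of the activator ring. It stood at 459, 444, 458 and 443 in Uninjured and at 480, 511 and 536 in GFP. HDAC5AA libraries held 587, 593, 503 and 551, and HDAC5DAD libraries 582, 631, 672 and 577. All 11 injured libraries lay above the 4 uninjured ones, which kept close together at 450.9 ± 8.89 (SD, n = 4). The limma log2 fold change was 0.30 (SE 0.07, adjusted p = 0.00667) in HDAC5AA and 0.44 (SE 0.07, adjusted p = 1.04e-04) in HDAC5DAD. In GFP it was 0.17 with a 95% interval of 0.02 to 0.32 (adjusted p = 0.159). In HDAC5AA the call was lost both among libraries with at least 1% ribosomal RNA feature reads (0.22) and among the others (0.39, adjusted p = 0.0702).

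Psme2, the beta subunit of the same ring, stood at 169, 150, 192 and 168 in Uninjured and at 170, 186 and 173 in GFP. HDAC5AA libraries held 175, 200, 199 and 195, and HDAC5DAD libraries 222, 190, 195 and 202. Each injured group overlapped Uninjured. The limma log2 fold change was 0.06 (95% interval -0.17 to 0.28) in GFP, 0.18 (-0.04 to 0.39) in HDAC5AA and 0.25 (0.04 to 0.46, adjusted p = 0.124) in HDAC5DAD. Of its 50-base words, 59.3% also occur in transcripts of other genes, mostly Psme2b, so its reads are uncertain. Psme2b itself was not analysed here.

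**Figure D1:**
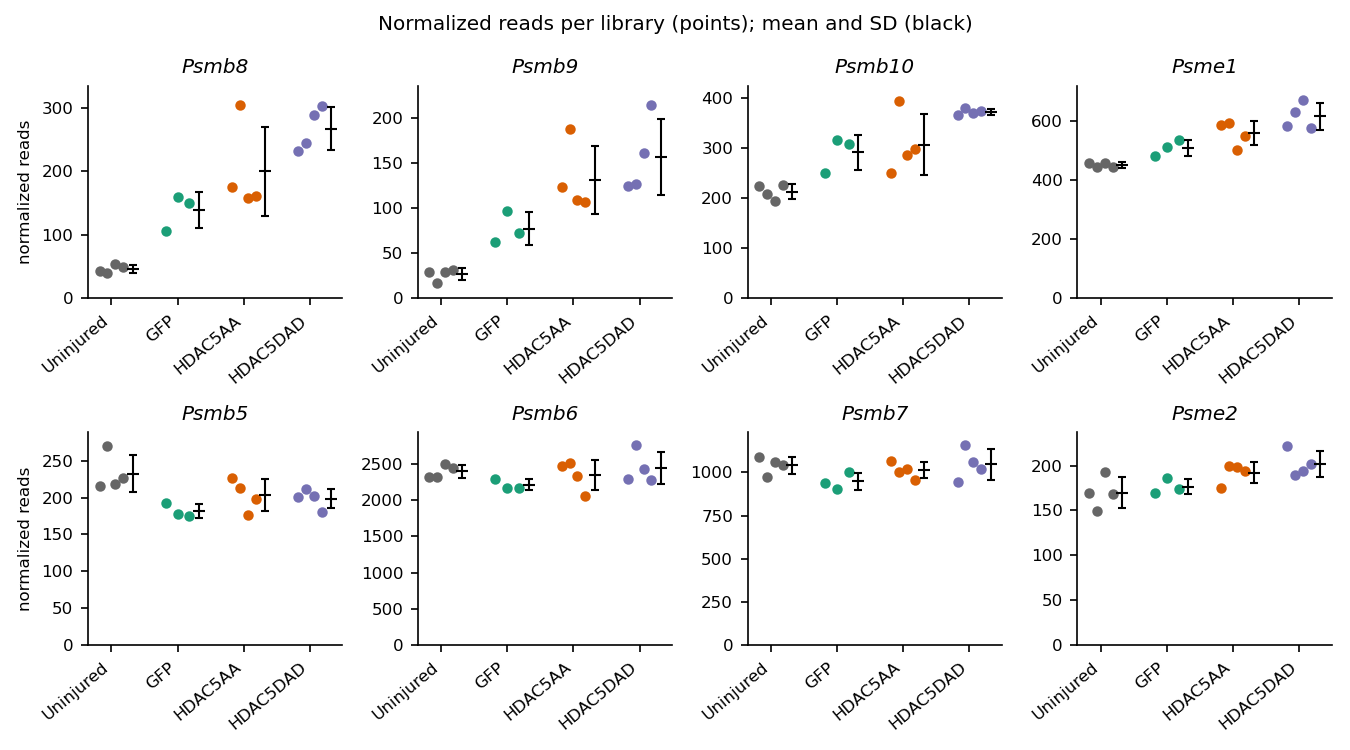
Normalized reads (y axis, linear, from 0) of 8 proteasome genes in each library of the 4 groups; each point is 1 library in the order of its replicate number, and the black mark beside it is the mean with its SD. Psmb8, Psmb9, Psmb10 and Psme1 show no overlap between Uninjured and any injured group, whereas Psme2 overlaps in all 3 comparisons. Psmb5, Psmb6 and Psmb7 changed less. Psmb5 lies below every uninjured library in GFP and HDAC5DAD, as does Psmb6 in GFP, and the rest of their comparisons overlap.

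The constitutive catalytic subunits moved little. Psmb5, whose peptidase activity cuts after hydrophobic residues, stood at 215, 270, 218 and 226 in Uninjured and at 193, 177 and 175 in GFP. HDAC5AA libraries held 227, 213, 176 and 198, and HDAC5DAD libraries 201, 211, 202 and 180. The GFP and HDAC5DAD libraries lay below every uninjured library, and HDAC5AA overlapped them. By limma it fell in GFP by 0.35 on the log2 scale (SE 0.10, adjusted p = 0.0310). The call was lost without Uninjured replicate 2, the highest library (-0.28, adjusted p = 0.108), without GFP replicate 3 (adjusted p = 0.0986) and without GFP replicate 4 (adjusted p = 0.127). It was -0.19 (95% interval -0.41 to 0.03) in HDAC5AA and -0.22 (-0.43 to -0.02, adjusted p = 0.160) in HDAC5DAD. Over its transcript, 57.1% of 50-base words also occur in other genes, mostly Gm3375, so these reads are uncertain too.

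Psmb6, which cuts after acidic residues, held 2314 to 2500 normalized reads in Uninjured, 2164 to 2296 in GFP, 2051 to 2511 in HDAC5AA and 2282 to 2758 in HDAC5DAD. Psmb7, which cuts after basic residues, held 973 to 1092, 906 to 1002, 955 to 1067 and 942 to 1160 in the same order. Their log2 fold changes against Uninjured lay between -0.14 and 0.02 in the 3 comparisons and passed in none. The GFP values were -0.12 (95% interval -0.24 to -0.0025) for Psmb6 and -0.14 (-0.27 to -0.0042) for Psmb7. For Psmb6 every GFP library lay below every uninjured one. For Psmb7, 28.1% of 50-base words are shared with Nek6 on the opposite strand.

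Of the 47 genes, limma called 3 higher and 1 lower in GFP, where 5.57% of all genes were called higher and 5.83% lower. At an unadjusted p under 0.05 stood 15 members there, against 23.1% of all genes. In HDAC5AA it called 4 higher and 0 lower, against 5.38% and 3.17% of all genes, and 5 members stood at an unadjusted p under 0.05, against 17.9%. In HDAC5DAD it called 5 higher and 0 lower, against 7.8% and 5.47% of all genes, with 12 members at an unadjusted p under 0.05, against 23.4%. The edgeR and DESeq2 tests on recovered reads gave the same counts of members, and the authors' deposited table likewise held 4, 4 and 5 members with an adjusted p under 0.1. Taken over the 47 genes, the share called was thus close to the background. The calls lay among the 3 immune catalytic subunits, Psme1, Psmb5 and Psmc6. Injured and uninjured libraries were fully separated for 15 of 47 members with the GFP virus, where 21.9% of all genes were. The HDAC5AA comparison had 4 such members, against 12.8% of all genes, and the HDAC5DAD comparison 8, against 16.6%.

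The 31 constitutive subunits had a median log2 fold change of -0.07 in GFP, 0.01 in HDAC5AA and 0.05 in HDAC5DAD, beside medians of 0.01, -0.01 and -0.01 over all genes tested. Values above 0 were held by 7, 17 and 27 of the 31. The GFP median stayed below 0 under all 16 alternatives (-0.10 to -0.04). The HDAC5AA median lay on both sides of 0 (-0.02 to 0.03), and that of HDAC5DAD ran from -0.00081 to 0.11, with 14 of 31 above 0 among libraries with at least 1% ribosomal RNA feature reads. Summed markers of rods, bipolar cells and Mueller glia were lower in every GFP library than in every uninjured one, whereas those of cones and amacrine cells overlapped. The 6 rod markers held 1198642 to 1335458 normalized reads there, with 2 called lower. The 4 bipolar cell markers held 11082 to 11975, against 12133 to 14524 in Uninjured, with 2 called lower. The 7 Mueller glia markers held 55429 to 58004 in GFP and 55656 to 59364 in HDAC5AA, against 65082 to 70353 in Uninjured. In both of these comparisons 2 of them were nonetheless called higher and 1 lower. HDAC5DAD overlapped Uninjured, at 54828 to 69573, with 3 called higher and 1 lower. The 4 endothelium markers, with 0 called in GFP, held 5166 to 5588 there, above every uninjured library at 4501 to 5136. The part of these cells in the values of the constitutive subunits and Psmb5 was not tested.

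The whole 95% interval lay within 0.5 of 0 on the log2 scale for 30, 31 and 31 of the 31 constitutive subunits, in GFP, HDAC5AA and HDAC5DAD, so that larger changes of nearly all of them are outside these intervals.

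By role, the 7 alpha ring subunits, which form the gate of the core, ranged from -0.18 to 0.14 in GFP, -0.05 to 0.09 in HDAC5AA and 0.05 to 0.15 in HDAC5DAD, with 0 called by limma, edgeR or DESeq2 and 1, 0 and 2 at an unadjusted p under 0.05. The lowest in GFP was Psma2 (-0.18, adjusted p = 0.0885), which passed without Uninjured replicate 2 (adjusted p = 0.0493). Of the 6 ATPases of the base, Psmc6 rose in HDAC5DAD, at a log2 fold change of 0.21 (SE 0.06, adjusted p = 0.0260 by limma). Its levels there were 1685, 1823, 1865 and 1812, against 1613, 1404, 1676 and 1528 in Uninjured. The lowest HDAC5DAD library lay just above the highest uninjured one, and the call was lost without any of 5 of the 8 libraries, with adjusted p values up to 0.0975. By limma it was also lost among libraries with at least 1% ribosomal RNA feature reads (0.15, adjusted p = 0.264). Among the others it was lost at a higher value (0.27, adjusted p = 0.101). In HDAC5AA Psmc6 was at 0.15 (95% interval 0.02 to 0.28, adjusted p = 0.188).

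The 11 other subunits of the regulatory particle include those that bind and deubiquitinate substrates. Their medians were -0.09, 0.00 and 0.04 in GFP, HDAC5AA and HDAC5DAD. Of them 0 were called by limma, edgeR or DESeq2, and 3, 0 and 0 stood at an unadjusted p under 0.05. Psmd7, the partner of the deubiquitinase Psmd14, was the lowest of them in all 3, at -0.26, -0.13 and -0.09. The 4 chaperones that build the core, Psmg1 to Psmg4, ranged from -0.22 to 0.16 over the 3 comparisons, and the 3 base chaperones Psmd5, Psmd9 and Psmd10 from -0.15 to 0.16. The nuclear activator Psme3, the activator Psme4 and the inhibitor Psmf1 stayed between -0.08 and 0.09. Psmc3ip, the recombination factor, was at 0.23, 0.17 and 0.25 and passed in none.

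**Figure D2:**
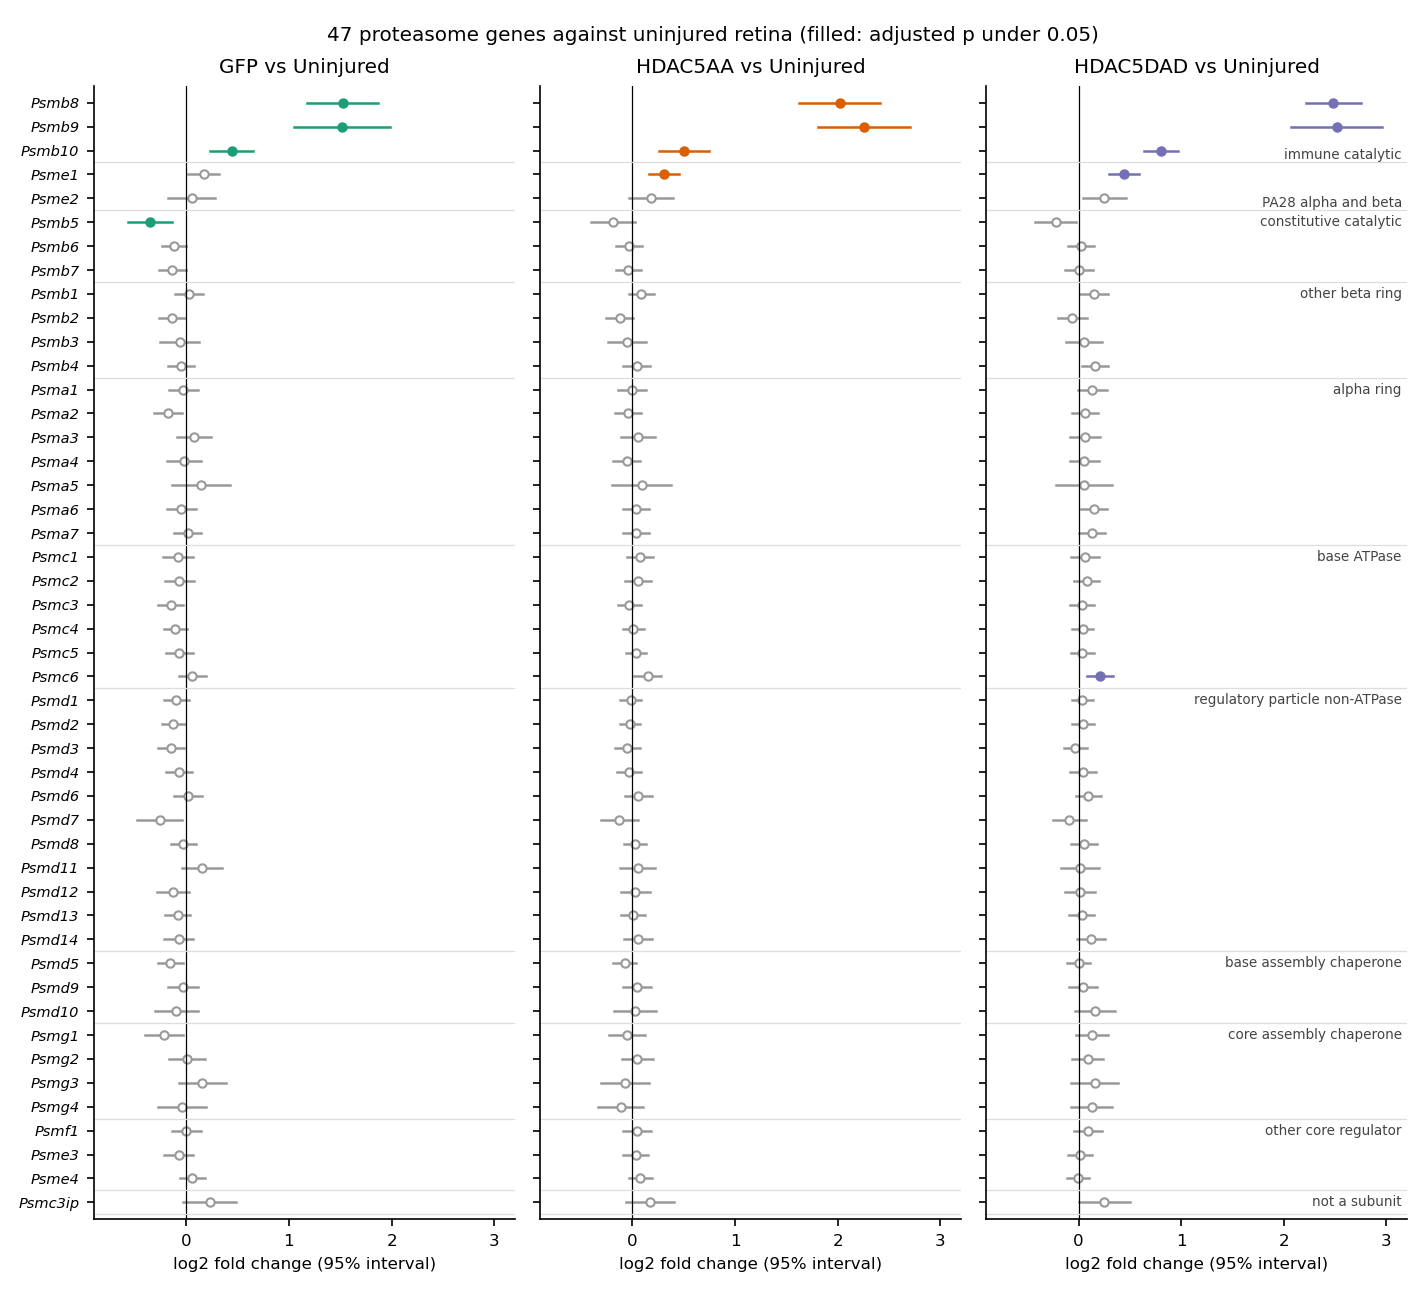
Log2 fold change (x axis) of all 47 genes, grouped by role, in GFP, HDAC5AA and HDAC5DAD against Uninjured; points are limma estimates, lines their 95% intervals, and filled coloured points passed an adjusted p of 0.05. The 3 immune catalytic subunits stand to the right in each panel, at 0.44 to 2.52, and nearly all other genes lie around 0.

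The ratio of an immune subunit to the one it replaces does not depend on the scale of a library. It is a ratio of reads, with no correction for transcript length, and was compared only across groups. For each 100 reads of Psmb5 there were 20.3, 14.9, 24.7 and 22.0 reads of Psmb8 in Uninjured and 54.9, 89.8 and 85.8 in GFP. There were 77.0, 143, 89.5 and 81.4 in HDAC5AA and 116, 116, 142 and 168 in HDAC5DAD. HDAC5DAD lay above GFP in every library, whereas HDAC5AA overlapped both. For each 100 reads of Psmb6 the mean number of Psmb9 reads was 1.12 ± 0.268 in Uninjured, 3.53 ± 0.898 in GFP, 5.60 ± 1.27 in HDAC5AA and 6.54 ± 2.09 in HDAC5DAD (SD, n = 4, 3, 4 and 4). For each 100 reads of Psmb7 there were 20.5 ± 1.48, 30.7 ± 4.11, 30.4 ± 6.65 and 35.7 ± 2.59 reads of Psmb10.

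Exact permutation tests of the mean log2 ratio, two-sided, were run for 3 ratios in 6 comparisons and adjusted over these 18. For these log2 ratios 1 was added to each normalized value, so at low values they depend slightly on the scale. In all 9 comparisons with Uninjured the libraries did not overlap, the exact p was 0.0286, the smallest the design allows, and the adjusted p was 0.0468. The differences were 1.88, 2.21 and 2.70 for Psmb8 over Psmb5, 1.63, 2.30 and 2.49 for Psmb9 over Psmb6, and 0.58, 0.55 and 0.80 for Psmb10 over Psmb7, in GFP, HDAC5AA and HDAC5DAD. Between injured groups, Psmb8 over Psmb5 was higher in HDAC5DAD than in GFP by 0.83, and Psmb9 over Psmb6 was higher in HDAC5AA than in GFP by 0.66 (exact p = 0.0286 and adjusted p = 0.0468 for each). Both adjusted values rest on the joint adjustment with the 9 comparisons with Uninjured, all at the smallest p. No adjustment over the tests between injured groups alone was made. Psmb9 over Psmb6 was 0.86 higher in HDAC5DAD than in GFP (exact p = 0.0571, adjusted p = 0.0857). The other 6 differences between injured groups did not pass. Psmb10 over Psmb7 in HDAC5AA against Uninjured did not pass without any 1 of the uninjured libraries (0.50 to 0.58, adjusted p = 0.0857 each by exact permutation). With only 3 GFP libraries, leaving out any of them makes the exact test unable to pass.

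**Figure D3:**
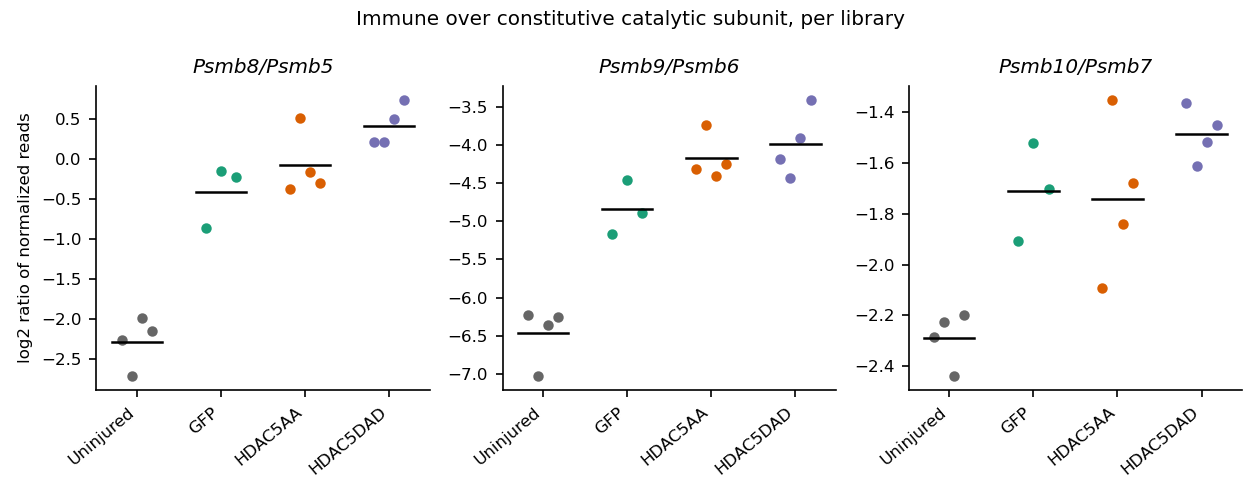
Log2 ratio of normalized reads, each plus 1 (y axis), of each immune catalytic subunit to the constitutive subunit it replaces, per library. Points are libraries and black lines group means. All injured libraries lie above the uninjured ones in each panel, and HDAC5AA replicate 2 is the highest library of its group.

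Between injured groups, limma called 0 of the 47 genes in any comparison. HDAC5AA and HDAC5DAD are each set against the same GFP libraries here, so the 2 comparisons share them. In HDAC5DAD against GFP, where 0.0% of all genes were called in either direction, 18 members stood at an unadjusted p under 0.05, as did 11.5% of all genes. There edgeR called 0 and DESeq2 called 2, Psmb8 (adjusted p = 0.00301) and Psmb9 (adjusted p = 0.00814). Of the 14201 genes to which DESeq2 gave an adjusted p, it called 0.324% higher. The limma log2 fold change was 0.95 (95% interval 0.55 to 1.36, adjusted p = 0.154) for Psmb8, 1.00 (0.50 to 1.50, adjusted p = 0.195) for Psmb9, 0.36 (0.13 to 0.60, adjusted p = 0.293) for Psmb10 and 0.27 (0.12 to 0.43, adjusted p = 0.235) for Psme1. These 4 genes and Psme2 were higher in every HDAC5DAD library than in every GFP library. Among libraries with at least 1% ribosomal RNA feature reads, Psmb8 passed limma (0.95, adjusted p = 0.0318). That class held only replicates 1 and 4 of HDAC5DAD, beside every GFP library.

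Most constitutive subunits had values just above 0 in HDAC5DAD against GFP. Their median log2 fold change was 0.13, beside 0.00 over all genes, and 28 of 31 lay above 0, with 0 called by limma, edgeR or DESeq2 and 11 at an unadjusted p under 0.05. The median ran from 0.08 to 0.15 under 15 alternatives, among them the libraries with at least 1% ribosomal RNA feature reads. GFP had no library under 1%, so that class could not be compared. The libraries did not overlap for 20 of the 47 members, 12 of them constitutive subunits, where 10.9% of all genes did not. The chaperone gene Psmg1 stood at 323, 325, 306 and 322 in HDAC5DAD and at 236, 275 and 241 in GFP, a log2 fold change of 0.35 (95% interval 0.18 to 0.52, adjusted p = 0.154 by limma). Psma2 was at 0.24 (0.11 to 0.37, adjusted p = 0.222) and Psmd10, a base chaperone, at 0.25 (0.05 to 0.46, adjusted p = 0.367). The lowest value was that of Psmd11, a scaffold subunit of the regulatory particle, at -0.14 (-0.33 to 0.05).

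In HDAC5AA against GFP, 0.0% of all genes were called in either direction, and 5 members stood at an unadjusted p under 0.05, as did 6.59% of all genes, with 0 called by edgeR or DESeq2. The log2 fold change was 0.49 (95% interval 0.08 to 0.90) for Psmb8 and 0.74 (0.24 to 1.25) for Psmb9, with limma adjusted p = 0.738 and 0.737. Without HDAC5AA replicate 2 these were 0.27 and 0.56. Psmb10 was at 0.06 (-0.17 to 0.30) and Psme1 at 0.13 (-0.02 to 0.28). The groups did not overlap for 5 members, where 7.9% of all genes did not, and the constitutive subunits had a median of 0.08. The lowest member was Psmg3, a core chaperone, at -0.23 (-0.47 to 0.01).

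In HDAC5AA against HDAC5DAD, 0.00513% of all genes were called in each direction and 7 members stood at an unadjusted p under 0.05, as did 6.78% of all genes, with 0 called by edgeR or DESeq2. All 5 immune genes had a value below 0: Psmb8 was at -0.46 (95% interval -0.84 to -0.09), Psmb9 at -0.26 (-0.72 to 0.21), Psmb10 at -0.30 (-0.52 to -0.08), Psme1 at -0.14 (-0.28 to -0.00045) and Psme2 at -0.07 (-0.27 to 0.12). Their limma adjusted p values were 0.706, 0.877, 0.689, 0.736 and 0.925. Without HDAC5AA replicate 2, Psmb8 was at -0.68 (adjusted p = 0.0953). The groups did not overlap for 1 member, Psmg1, where 3.21% of all genes did not.

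**Figure D4:**
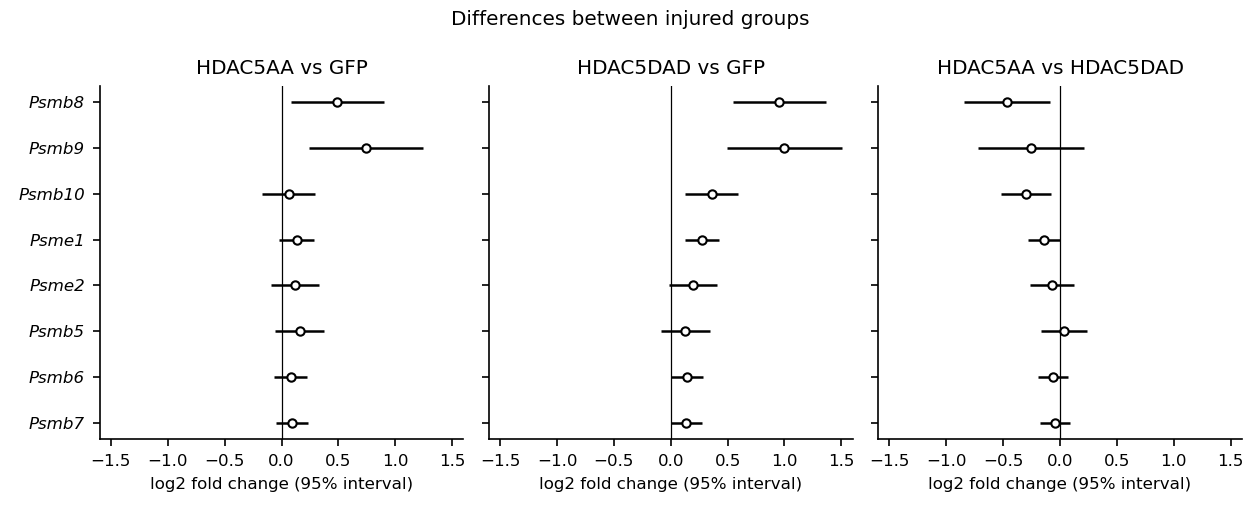
Log2 fold change (x axis) of 8 proteasome genes between the injured groups, with limma estimates as points and 95% intervals as lines; open points did not pass an adjusted p of 0.05. The immune subunits Psmb8 and Psmb9 have the highest values against GFP, at 0.95 and 1.00 in HDAC5DAD and 0.49 and 0.74 in HDAC5AA, with the widest intervals.

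Microglial and myeloid marker sums, like the immune catalytic subunits, were higher in every injured library than in every uninjured one. The 10 myeloid markers found in all tables, of 12 listed, summed to 173 to 200.4 normalized reads in Uninjured, 547 to 1473 in GFP, 826 to 1480 in HDAC5AA and 742 to 1694 in HDAC5DAD. Only S100a8 and S100a9 of that list were outside the tables shared by all groups, and no listed gene was at 0 in every library. HDAC5AA replicate 2, the library with the highest Psmb8 of all, held 1480 myeloid and 4856 microglial normalized reads, against 826 to 932 and 2921 to 3193 in the other 3 libraries of its group. Of those 3, replicate 1 held the most Psmb8 reads, 175, but the fewest myeloid and microglial reads. In GFP replicates 2 to 4 the orders were the same. Psmb8 stood at 106, 159 and 150, microglial reads at 2515, 3567 and 3110, and myeloid reads at 547, 1473 and 843. In HDAC5DAD, Psmb8 stood at 232, 245, 288 and 302, and microglial reads at 3421, 3680, 4781 and 4356. The myeloid order differed more there: replicate 2 held the fewest myeloid reads, 742, with Psmb8 at 245, above every GFP library. Of 12 lymphocyte markers, 3 stood in all tables, and they summed to 17.6 to 26.5 in Uninjured, 29.8 to 43.5 in GFP, 25.3 to 56.0 in HDAC5AA and 29.8 to 125 in HDAC5DAD. Cd3e, Cd3d, Cd3g, Cd8a, Cd8b1, Nkg7, Gzmb, Ncr1 and Ms4a1 did not stand in all tables. In the table of each pair, limma called 1 of 3 measured lymphocyte markers higher in GFP, 1 of 5 in HDAC5AA and 5 of 7 in HDAC5DAD. The part of these cells in the values of the immune subunits was not tested.

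Other genes of the pathway were tested in the same fits. Of 6 ubiquitin and ubiquitin-activating genes, 0 passed limma in any comparison with Uninjured, their medians were -0.02, 0.05 and 0.10, and 2, 0 and 1 stood at an unadjusted p under 0.05. DESeq2 called 1 of them in GFP, and edgeR none. Of 20 measured cofactors, including shuttle factors and the transcription factors of the constitutive genes, 1 passed: Pomp, which assembles the core and is needed for the immune form too, was at 0.22 in HDAC5DAD (adjusted p = 0.0128 by limma). Of 10 genes that load MHC class I molecules, 6, 6 and 7 rose in GFP, HDAC5AA and HDAC5DAD, with medians of 0.74, 1.02 and 1.25. Tap1, the neighbour of Psmb9, rose by 1.50, 1.95 and 2.41, and Nlrc5, the activator of MHC class I genes, by 2.93, 3.52 and 3.78.

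Of 9 peptidases that trim proteasome products, Erap1 alone rose, by 0.43, 0.55 and 0.65 in the same order. All 5 measured genes of the interferon-induced ubiquitin-like modifier system rose in each group by limma and DESeq2, with 4 of 5 called by edgeR in HDAC5DAD, among them Uba7, its activating enzyme, by 0.92, 1.03 and 1.36. Of 15 measured genes of interferon signalling, 4, 4 and 8 rose, including Irf1 (1.44, 1.63 and 2.06), known from human cells to act on the promoter that PSMB9 shares with TAP1. Between injured groups none of these lists had a gene that passed limma or edgeR. In HDAC5DAD against GFP, 7 genes of MHC class I loading and 5 of interferon signalling stood at an unadjusted p under 0.05 by limma, and DESeq2 called 1 gene of the former list and 2 of the latter.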

How the data were processed

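Ribosomal RNA-depleted RNA of whole retina was sequenced, per the labels' protocols, as single 50-base reads after SMARTer preparation. STAR, HTSeq, DESeq2 and the build mm10 are named, without versions, per the submitters' processing notes. Each of the 3 deposited tables sets 1 injured group beside the same 4 uninjured libraries. The authors deposited a normalized count signal per library, a log2 fold change and p-values, per the file headers. All values (100.0% within 0.01) were whole multiples of 1 factor per library, so reads were recovered. GFP replicate 1 was not analysed here, since no column was matched to it. The members and gene lists were chosen with earlier results of these data known.

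Comparisons with Uninjured were fitted in the table of each pair, which were normalized separately, and those between injured groups on recovered reads joined over 19495 genes and scaled by median of ratios. The plan named edgeR for whole counts. Because the deposited unit is normalized, the test was limma 3.58.1 (trend, robust) on the log2 of the value plus 1, two-sided, keeping genes whose mean reached 1, with Benjamini-Hochberg adjustment over all genes, and a fold change is on that scale. As alternatives, edgeR 4.0.16 (quasi-likelihood) on recovered reads called 1095 genes higher against Uninjured in GFP (1141 lower), 1037 in HDAC5AA (654 lower) and 1468 in HDAC5DAD (1064 lower), and DESeq2 1.42.0 was run. Other pseudocounts, filters, libraries left out, a replicate block and classes of ribosomal RNA share (9 libraries of at least 1%) were also tried. The fits were checked on simulated data. Exact permutation tests were run in Python 3.11.15 and 95% intervals are those of limma.

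Named in every comparison are Psmb5 to Psmb10, Psme1 and Psme2, then other members that passed and the 3 highest and 3 lowest of the rest. Further members described by role were chosen after their values were seen. Coordinates, exons and 50-base words come from GENCODE M21 (GRCm38), which held 20190 of 20278 gene IDs, and promoter sequences from RefSeq (GRCm38.p6).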

Additional observations from a re-analysis of the deposited data

Results flagged for a closer look

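In 6 of 78 groups of 4 libraries examined, 1 library stood far from the others by Dixon's criterion, which chance alone flags in about 1 of 20 groups. Psmb8 in HDAC5AA replicate 2 was high, at 304.7 normalized reads, in the library that also held the most microglial marker reads of all 15. Psmb9 in Uninjured replicate 2 was low, at 16.7 normalized reads, and so was its log2 ratio to Psmb6, at -7.03. HDAC5AA replicate 1 was high for 2 regulatory particle subunits, Psmd12 at 753 and Psmd3 at 2587 normalized reads. The core chaperone Psmg1 was low in HDAC5DAD replicate 3, at 305.8 normalized reads.

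Both ratios that passed the exact permutation test between injured groups are placed here as differences under the same injury. Their adjusted p values rest on the joint adjustment with the comparisons with Uninjured. The log2 ratio of Psmb8 to Psmb5 was higher in HDAC5DAD than in GFP by 0.83, and that of Psmb9 to Psmb6 was higher in HDAC5AA than in GFP by 0.66. No cause was tested for any of these.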

How the results depend on the processing

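All alternatives were planned. Psmb8 and Psmb9 passed against Uninjured in all 3 injured groups under each of them. The count of lower members in GFP was 0 to 2 with 1 library left out and 0 among libraries with at least 1% ribosomal RNA feature reads; that of higher members in HDAC5AA was 2 among these libraries and 2 among the others, each with fewer libraries. In HDAC5DAD against GFP it was 2 by DESeq2 and 1 among libraries with at least 1%. The log2 ratio of Psmb9 to Psmb6 in HDAC5AA against Uninjured was 1.92 among libraries with at least 1% and 2.67 among the others. That of Psmb10 to Psmb7 in HDAC5AA was 0.42 to 0.66 with 1 library left out and did not pass (adjusted p = 0.0857) without any 1 of the uninjured libraries. Against GFP it was -0.16 to 0.087. Against HDAC5DAD, without HDAC5AA replicate 2, it passed at -0.38 (range -0.38 to -0.14) and Psmb8 to Psmb5 at -0.69 (range -0.69 to -0.39), each with adjusted p = 0.0429 by exact permutation. These adjusted values too rest on the joint adjustment with the comparisons with Uninjured.

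Values near 0 that never passed changed sign. Among libraries under 1%, HDAC5AA against Uninjured gave 0.050 for Psmb6, 0.030 for Psmb7 and -0.016 for Psma5, HDAC5DAD against Uninjured 0.080 for Psmb2, and HDAC5AA against HDAC5DAD 0.084 for Psmb9, -0.13 for Psma5 and 0.14 for the ratio of Psmb9 to Psmb6. Among those with at least 1%, HDAC5DAD against Uninjured gave -0.060 for Psmb6 and -0.12 for Psmb7, HDAC5AA against GFP -0.014 for Psmb6, and HDAC5AA against HDAC5DAD -0.023 for Psmb5, 0.011 for Psmb7 and -0.075 for Psmd11. With 1 library left out, the ranges were -0.0030 to 0.12 for Psme2 in GFP; -0.073 to 0.025 for Psmb6 and -0.0069 to 0.17 for Psma5 in HDAC5AA; and -0.040 to 0.052 for Psmb6, -0.050 to 0.051 for Psmb7, -0.095 to 0.012 for Psmb2 and -0.059 to 0.011 for Psmd3 in HDAC5DAD. They were -0.064 to 0.15 for Psmb10 and -0.16 to 0.018 for Psmg4 in HDAC5AA against GFP. In HDAC5AA against HDAC5DAD they were -0.021 to 0.099 for Psmb5, -0.095 to 0.0024 for Psmb6, -0.093 to 0.0066 for Psmb7, -0.041 to 0.093 for Psma5 and -0.011 to 0.10 for Psmd11. The cause was not tested.

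Replicate numbers are shared by the groups, and the labels do not say what they stand for. The 21 same-numbered pairs correlated at -0.17 to 0.24 (median 0.01), beside a median of -0.0052 over 63 other pairs. A weak shared effect could be missed in this way. With the replicate block no count of members changed. The ratios were then tested by exact permutation of paired differences, where the lowest p was 0.125 (adjusted p = 0.321). With so few pairs no ratio could pass in that setting. The ratio of Psmb10 to Psmb7 in HDAC5AA against GFP was 0.087 there. With 3 or 4 libraries a group, the 95% interval of a constitutive subunit against Uninjured reached a median of 0.13 to 0.14 on the log2 scale to either side, and the adjusted test needs a larger change than that.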
